A study of Homo sapiens with 6 samples.

Results

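The genes described here are 32 genes of the ATF4 amino acid response and of the unfolded protein response of the endoplasmic reticulum (ER). They were selected by symbol from a list of names that was drawn up with earlier results of these data known, and all 32 were found among the 26793 loci with a symbol in a table of 47577 loci. There were 17 genes on the ATF4 branch and 15 on the ER branch. RNA-seq was carried out on OVCAR3, an established line of high-grade serous ovarian adenocarcinoma, to ask which transcripts respond to a short inhibition of the kinases CDK12 and CDK13. The DMSO group consisted of 3 libraries from cells that received the solvent for 6 h, and the THZ531 group of 3 libraries from cells that received 200 nM THZ531, a covalent inhibitor of both kinases, for 6 h. All the cells were untransfected OVCAR3 grown in the same medium, so a single line stands for the tumour, and the submitters describe the 3 libraries of a group as biological repeats. The sample titles, the treatment label of the samples and the series description name THZ531. The treatment protocol field of the same samples names the compound THZ1 at 200 nM, and the titles were followed.

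Sequencing gave 69769011, 60146046 and 70986130 reads on genes in the DMSO libraries and 53054048, 57953296 and 57935278 in the THZ531 libraries. Values are normalized reads, namely the reads of a locus divided by a factor per library, and they are not corrected for gene length. The mitochondrial genome took 8.498%, 9.14% and 10.1% of the reads in DMSO and 8.99%, 9.21% and 8.80% in THZ531. All 14 markers of a serous ovarian carcinoma line that were examined were detected, led by KRT8, and their summed level was 459559 to 472589 normalized reads in DMSO and 602946 to 612819 in THZ531. Among these markers PAX8 fell by 3.19 on the log2 scale and CLDN4 rose by 1.31. Markers of other cells were low. Of 5 immune markers, CD3E and MS4A1 were at 0 in every library, and the list, led by CD68, summed to 515.0 to 598.2 normalized reads over the 6 libraries. The 5 fibroblast markers, led by COL1A1 (995.5 in DMSO and 2190 in THZ531), summed to 1116 to 1174 in DMSO and 2217 to 2568 in THZ531, with DCN and LUM at 0 in THZ531. The 4 endothelial markers, led by VWF, summed to 231.0 to 286.5 in DMSO and 308.1 to 419.9 in THZ531. COL1A1, VWF and KDR were called increased, and their part in the values below was not tested.

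Cells answer a shortage of amino acids, or unfolded proteins in the ER, by phosphorylating the initiation factor eIF2. This lowers general translation while the messenger of ATF4 is translated more, and ATF4 then acts with partners of the C/EBP family on genes for amino acid synthesis, transport and stress adaptation. Unfolded proteins are also sensed by IRE1 (the ERN1 gene), PERK (EIF2AK3) and ATF6 in the ER membrane. IRE1 splices the messenger of XBP1, and PERK phosphorylates eIF2. The cleaved form of ATF6 and the protein made from the spliced XBP1 messenger raise chaperones and the machinery that removes misfolded proteins. Much of this control acts on translation, splicing and protein cleavage, which gene-level read counts do not measure.

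Promoters of some of the genes carry elements by which both branches are known to be read, and 9 of the 28 genes examined held at least 1 of those searched. The windows examined hold 300 bases, 250 before and 50 after the start of a gene, from RefSeq on GRCh38.p14, and 28 of the 32 genes had at least 1 window (43 windows in all), while PSPH, SHMT2, ALDH1L2 and NUPR1 were not examined. The motif TGATGNAA, the shared part of C/EBP-ATF response elements, was searched on both strands and was present in 4 of the 28 genes. By window this was 4 of 43 (9.3%), against 1270 of 35116 windows overall (3.62%). These 4 sites are shown because they lie at genes of both branches, and the capitals mark the fixed letters of the motif.
CHAC1: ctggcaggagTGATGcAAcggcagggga
ASNS: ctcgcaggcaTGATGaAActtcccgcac
CEBPG: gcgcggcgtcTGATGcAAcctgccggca
HERPUD1: gggcacgggcTGATGcAAcccgccgcgt
The CHAC1 run is at chr15:40953252-40953279 on the minus strand, the ASNS run at chr7:97872459-97872486 on the minus strand, the CEBPG run at chr19:33374061-33374088 on the plus strand and the HERPUD1 run at chr16:56931956-56931983 on the minus strand.

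The ER stress response element was searched as CCAAT and CCACG separated by 9 bases, on both strands. It was present in 5 of the 28 genes. By window this was 7 of 43 (16.3%), 3 of them overlapping windows with the same CANX site, against 27 of 35116 windows overall (0.0769%). All 5 genes were among the 15 genes of the ER branch, with 0 of the 13 examined genes of the ATF4 branch. The 5 sites are shown because they stand at a transcription factor and at folding factors of the ER, with both boxes of the element in capitals.
XBP1: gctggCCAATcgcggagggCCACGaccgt
CRELD2: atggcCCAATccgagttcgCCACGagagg
CALR: accgaCCAATgatggtcgaCCACGcgtgg
CANX: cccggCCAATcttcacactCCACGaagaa
PDIA6: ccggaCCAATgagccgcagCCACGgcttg
The XBP1 run is at chr22:28800598-28800626, the CRELD2 run at chr22:49918549-49918577, the CALR run at chr19:12938379-12938407 and the PDIA6 run at chr2:10812848-10812876, each on the minus strand, and the CANX run is at chr5:179698773-179698801 on the plus strand. No gene held both elements, and the motif TGACGTGG, an unfolded protein response element, was in 256 of 35116 windows (0.729%) and in 0 of the 28 genes. The letters were matched exactly, so a window without a match may hold a variant of the element.

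All 32 genes passed the minimum for expression, which was 10 normalized reads in 3 or more libraries. Treatment with THZ531 up-regulated 4 of them, namely ATF5, CEBPB, CEBPG and EDEM1, and down-regulated 6, namely DDIT3, NUPR1, CHAC1, ERN1, XBP1 and SYVN1. Such a call needed a fold change of 1.5 or more and an unadjusted p of 0.05 or less in limma. The 4 increased genes are 12.5% of the 32, against 15.7% of all 17568 expressed loci and 13.3% of the 15278 with a symbol, and the 6 decreased genes are 18.8%, against 23.9% and 23.7%. Both shares were below the background, so the number of regulated genes did not set the group apart. By the adjusted p of limma alone (Benjamini-Hochberg, at most 0.05), 18 genes were higher in THZ531 and 11 lower, which is 56.2% and 34.4%, against 34.6% and 34.1% of all expressed loci. The DMSO and THZ531 libraries did not overlap for 19 genes that were higher and 11 that were lower, against 36.0% and 35.7% of all expressed loci. The median log2 fold change was 0.20 over the 32 genes and -0.01 over all expressed loci. As the samples are bulk RNA, a lower value cannot be told apart between fewer transcripts per cell and fewer cells that carry them.

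**Figure D1:**
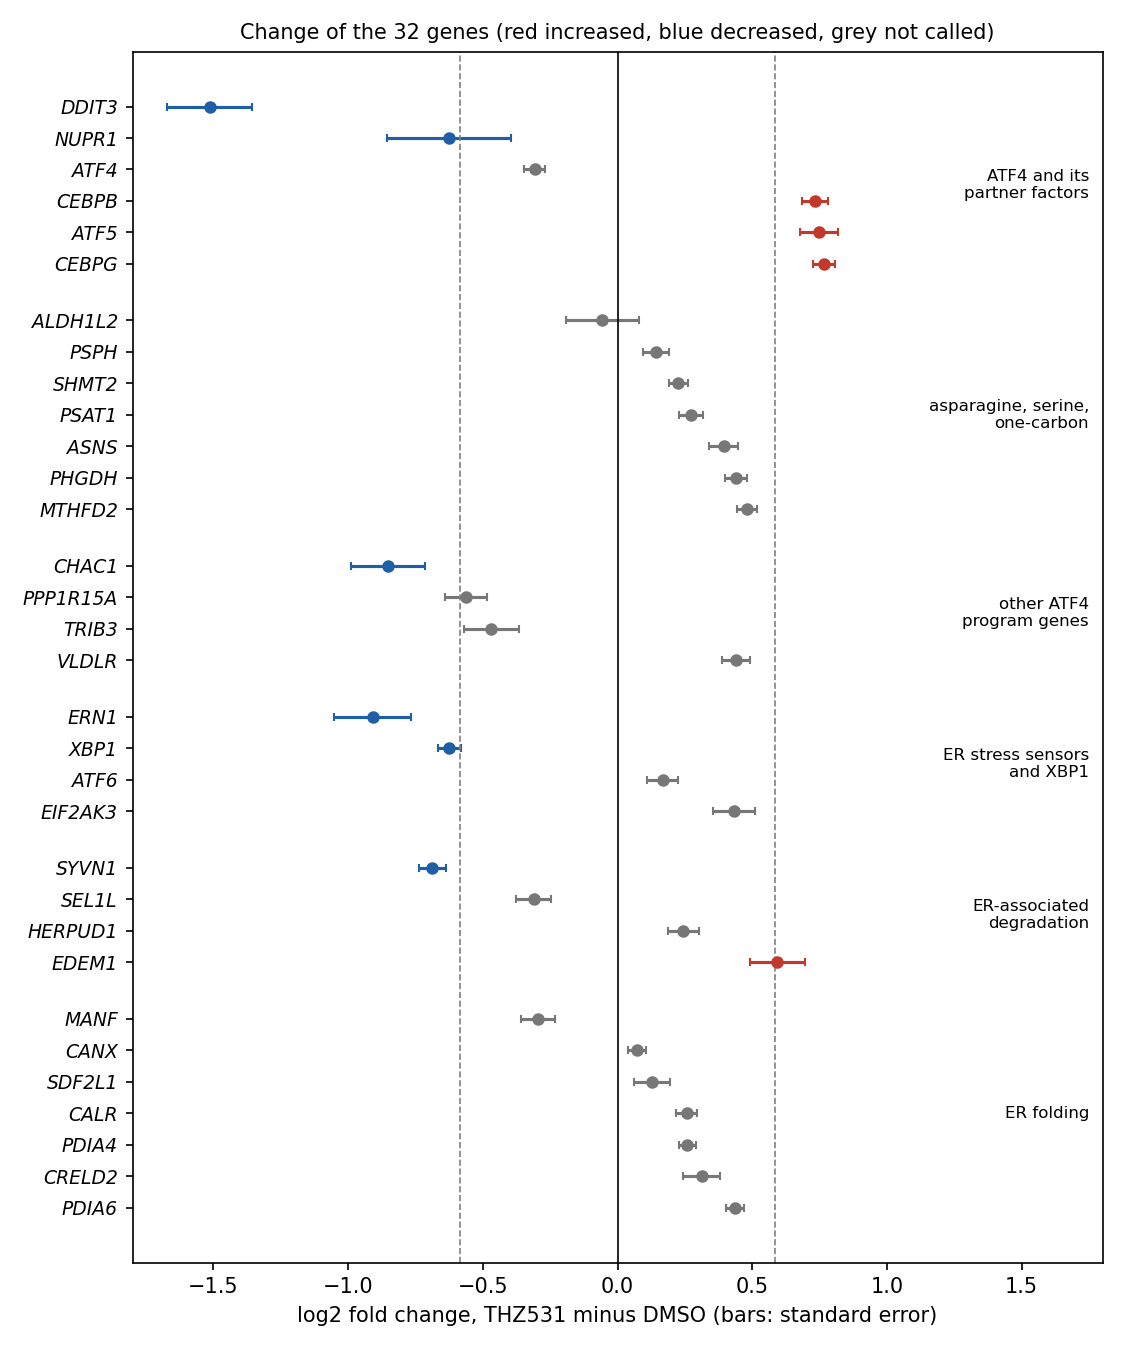
Log2 fold change of each gene (THZ531 minus DMSO, x axis) with its standard error from limma (n = 3 libraries per group), grouped by role. Red points were increased, blue points decreased and grey points not called, and the dashed lines mark a fold change of 1.5. CEBPB, ATF5 and CEBPG lie between 0.73 and 0.77, while DDIT3 lies at -1.51.

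The transcription factors moved in opposite directions. ATF4 itself, the activator of the amino acid response (chr22:39520559-39522685, hg38), gave 23489.9, 24477.2 and 25222.9 normalized reads in DMSO and 19659.2, 18961.3 and 20488.4 in THZ531. Every THZ531 library was below every DMSO library, and the mean went from 24397 ± 869 to 19703 ± 765 (SD, n = 3). The difference was -0.31 on the log2 scale (SE 0.04, adjusted p = 2.4e-06, limma), a 1.24-fold lower level that did not reach the fold threshold. ATF4 is therefore not counted among the decreased genes.

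DDIT3, which encodes the stress factor CHOP, fell most of the 32 genes. It gave 392.2, 430.5 and 319.2 normalized reads in DMSO and 110.8, 154.6 and 133.1 in THZ531. The lowest DMSO library was above the highest THZ531 library, and the means were 380.6 ± 56.6 and 132.8 ± 21.9. The log2 fold change was -1.51 (SE 0.16, adjusted p = 3.4e-07, limma), which is a 2.86-fold decrease. The DDIT3 locus overlaps by 981 bases that of MARS1, the methionyl-tRNA synthetase on the other strand, for which 23312 ± 883 reads in DMSO and 20602 ± 191 in THZ531 were listed. The strand setting of the read counting is not given in the sources used here, and the part of MARS1 reads in the DDIT3 value was not tested.

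NUPR1, a small chromatin-bound stress protein, was the least counted of the 32 genes. Its values were 74.6, 98.4 and 86.2 in DMSO and 56.7, 56.8 and 52.3 in THZ531, without overlap between the groups. It fell by 0.63 on the log2 scale (SE 0.23, adjusted p = 0.024, limma). The log2 fold change was -0.53 without DMSO replicate 2, the library with its highest value, and the call was then lost.

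The remaining factors of this class were up-regulated. ATF5, a relative of ATF4 whose messenger is controlled by upstream reading frames in a like manner, gave 875.7, 1022.5 and 958.3 in DMSO and 1599.5, 1509.5 and 1682.6 in THZ531. It rose by 0.75 on the log2 scale (SE 0.07, adjusted p = 1.1e-07, limma), 1.68-fold. The ATF5 locus lies within that of NUP62 and IL4I1 on the other strand, which fell over the same libraries from 4432 ± 90.6 to 2352 ± 7.65 normalized reads.

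CEBPB and CEBPG encode C/EBP proteins, which form dimers with ATF4. CEBPB gave 7288.8, 7249.7 and 6332.1 in DMSO and 11355.4, 11601.2 and 11644.1 in THZ531. Its log2 fold change was 0.73 (SE 0.05, adjusted p = 1.7e-09, limma). CEBPG gave 4070.3, 4211.8 and 4327.0 in DMSO and 7303.7, 6939.6 and 7231.1 in THZ531, a log2 fold change of 0.77 (SE 0.04, adjusted p = 1.6e-10, limma). CEBPG was the gene with the largest increase of the 32, at 1.70-fold, and it holds 1 of the C/EBP-ATF motifs shown above.

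**Figure D2:**
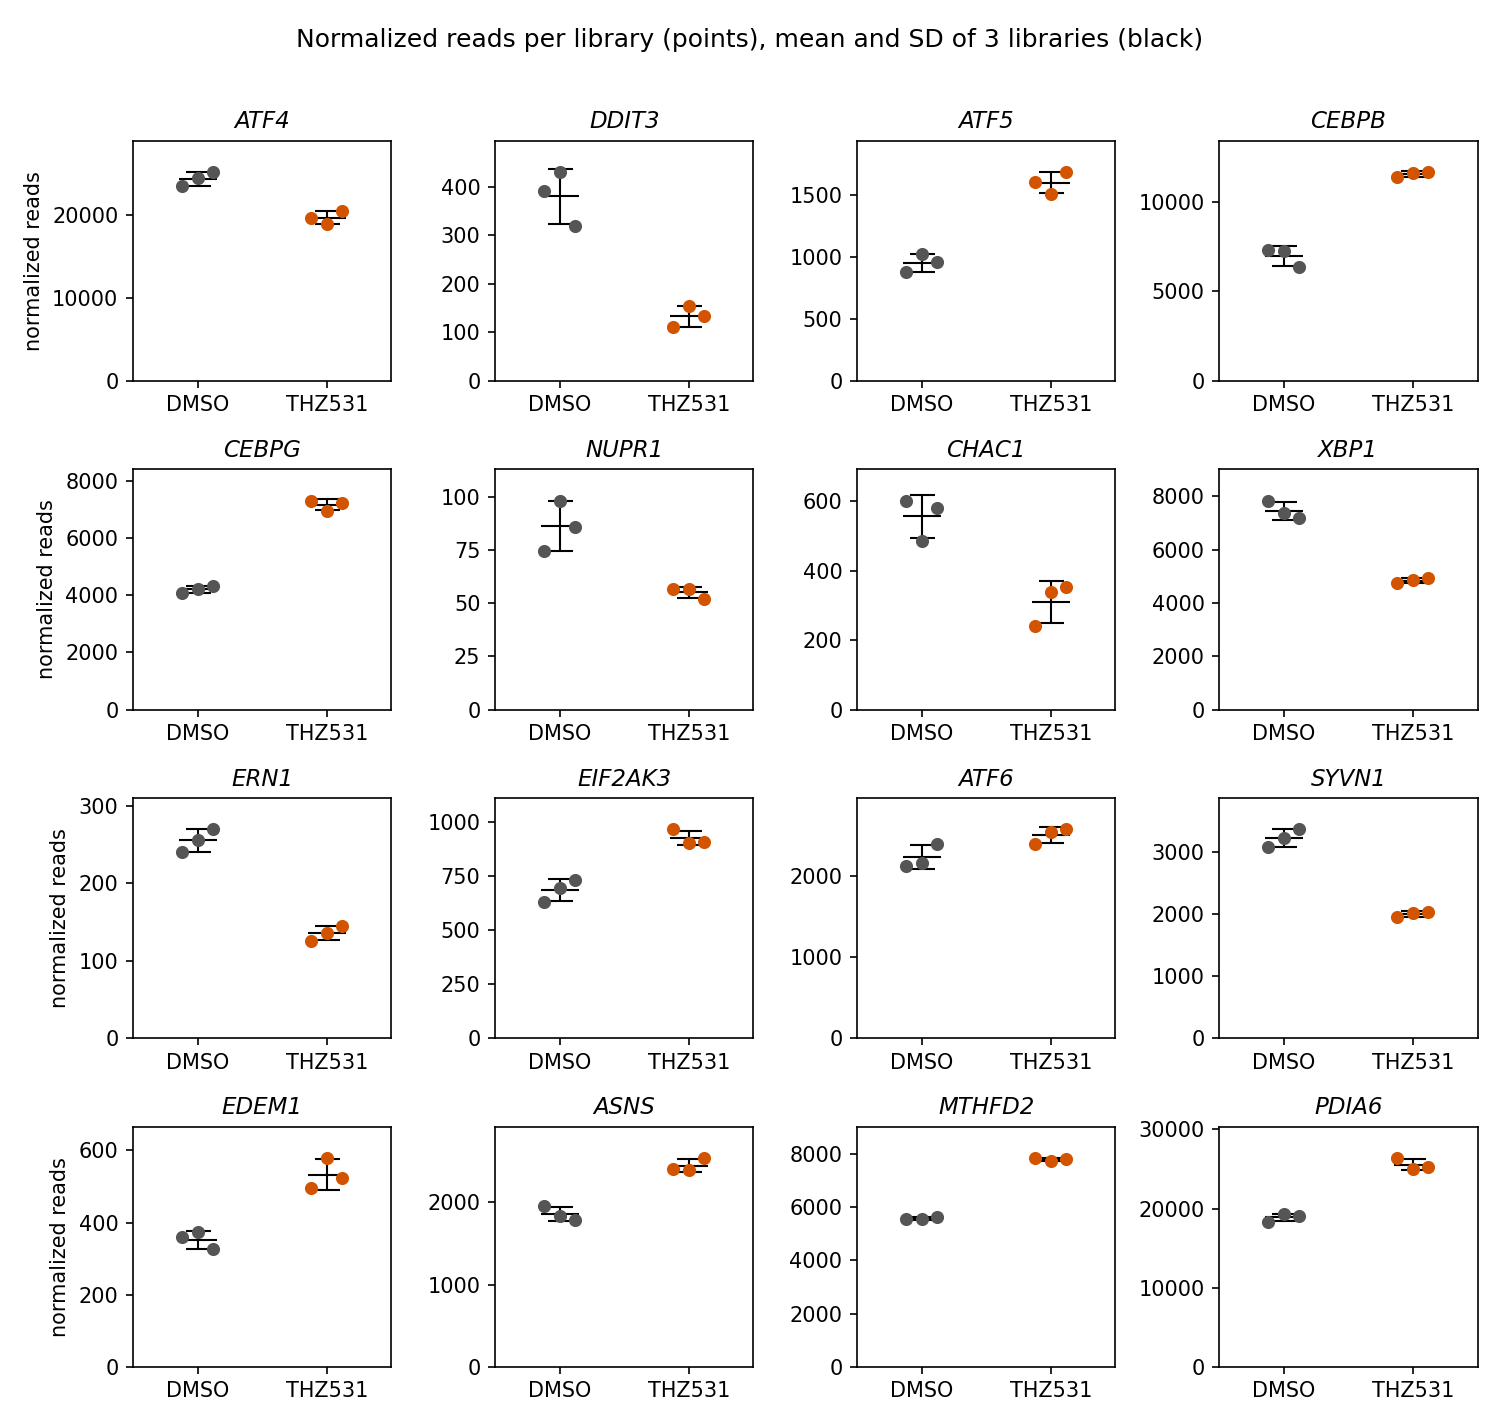
Normalized reads (y axis, from 0) in each of the 3 DMSO and 3 THZ531 libraries for 16 of the 32 genes. Points are libraries, and black lines give the mean and SD. The groups overlap only for ATF6 among the panels shown, where the lowest THZ531 library (2388.0) is below the highest DMSO library (2398.5).

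None of the 7 enzymes of asparagine, serine and one-carbon metabolism was called regulated (15.7% of all expressed loci were increased and 23.9% decreased), although 6 of the 7 were higher in THZ531 by the adjusted p of limma, as were 34.6% of all expressed loci. Their median log2 fold change was 0.27 on the deposited scale and -0.22 when the libraries were scaled to RPL34. Over all expressed loci these medians were -0.01 and -0.50. MTHFD2, a mitochondrial enzyme of the folate cycle, showed the largest difference. It gave 5564.5, 5540.5 and 5649.1 in DMSO and 7842.8, 7719.3 and 7826.1 in THZ531, so that the gap between the groups was far wider than the spread inside each of them. The log2 difference was 0.48 (SE 0.04, adjusted p = 8.7e-09, limma), 1.40-fold and thus under the threshold of 1.5.

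Among the enzymes that make serine from a glycolytic intermediate, PHGDH, which catalyses the first step, went from 6526 ± 310 to 8854 ± 92.5 normalized reads (log2 difference 0.44). PSAT1, the aminotransferase of the second step, went from 4171 ± 118 to 5040 ± 155 (0.27). PSPH, the phosphatase of the last step, went from 2443 ± 77.9 to 2696 ± 35.3 (0.14). In each of these 3 genes the THZ531 libraries were all above the DMSO libraries, as in 36.0% of all expressed loci. SHMT2, which passes a carbon unit from serine to folate in mitochondria, went from 12369 ± 315 to 14454 ± 196 (0.23). ASNS, the asparagine synthetase and a carrier of the C/EBP-ATF motif, went from 1861 ± 88.6 to 2448 ± 78.9 (0.40). ALDH1L2, the mitochondrial formyl-folate dehydrogenase, gave 233.4, 222.7 and 291.2 in DMSO and 233.0, 235.3 and 245.7 in THZ531. Its groups overlapped, the log2 difference was -0.06 (adjusted p = 0.73, limma), and it became 0.06 without DMSO replicate 3, the highest of its values.

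Of the 4 other genes of the ATF4 program, CHAC1 was down-regulated. CHAC1, which degrades glutathione, gave 601.8, 487.1 and 581.7 in DMSO and 241.8, 337.6 and 352.7 in THZ531. It fell by 0.85 on the log2 scale (SE 0.14, adjusted p = 3.9e-05, limma), a 1.81-fold decrease that was found in the same direction when any 1 library was left out (-0.95 to -0.68). CHAC1 and CEBPG thus share the C/EBP-ATF motif in their promoter windows and had fold changes of opposite sign.

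PPP1R15A encodes GADD34, the subunit that directs a phosphatase to eIF2. It gave 1468.7, 1557.0 and 1780.1 in DMSO and 1025.2, 1044.6 and 1183.2 in THZ531, a log2 difference of -0.56 (SE 0.08, adjusted p = 8.6e-06, limma). The 1.48-fold lower level was just short of the threshold and passed it without DMSO replicate 1 (-0.62) or without THZ531 replicate 3 (-0.63). TRIB3, a pseudokinase that restrains the response, gave 953.5, 923.3 and 807.5 in DMSO and 740.6, 653.6 and 554.0 in THZ531, a log2 difference of -0.47 (SE 0.10, adjusted p = 0.00065, limma). VLDLR, a lipoprotein receptor, was on the opposite side, with 2817 ± 176 in DMSO and 3814 ± 129 in THZ531 (log2 difference 0.44). The groups did not overlap for any of these 4 genes, while 36.0% of all expressed loci were higher and 35.7% lower without overlap.

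The sensors of the ER did not move together on the deposited scale. ERN1, which encodes IRE1, gave 240.6, 256.1 and 269.7 in DMSO and 125.9, 136.4 and 144.5 in THZ531. It fell by 0.91 on the log2 scale (SE 0.14, adjusted p = 3.1e-05, limma), a 1.88-fold decrease. EIF2AK3, which encodes PERK, gave 631.2, 694.1 and 731.7 in DMSO and 964.8, 902.5 and 909.0 in THZ531. It was 1.35-fold higher, with a log2 difference of 0.43 (SE 0.08, adjusted p = 0.00012, limma), without overlap but under the fold threshold. ATF6 gave 2126.9, 2160.2 and 2398.5 in DMSO and 2388.0, 2539.4 and 2573.4 in THZ531, a log2 difference of 0.17 (SE 0.06, adjusted p = 0.016, limma), and its groups overlapped by 1 pair of libraries. With RPL34 the log2 differences were -1.40 for ERN1, -0.058 for EIF2AK3 and -0.33 for ATF6.

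XBP1, the transcription factor whose messenger is spliced by IRE1, was down-regulated together with ERN1. It gave 7834.2, 7374.0 and 7182.6 in DMSO and 4743.2, 4844.6 and 4927.3 in THZ531, and fell by 0.62 on the log2 scale (SE 0.04, adjusted p = 2.1e-09, limma), 1.54-fold. The groups were far apart, but the spliced and unspliced forms of XBP1 are not separated in the table.

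The 4 genes of ER-associated degradation were divided. SYVN1, the ubiquitin ligase HRD1 of the ER membrane, gave 3086.7, 3233.7 and 3367.1 in DMSO and 1954.7, 2019.9 and 2037.6 in THZ531. It fell by 0.69 on the log2 scale (SE 0.05, adjusted p = 5.1e-09, limma), 1.61-fold. SEL1L, the adaptor that holds SYVN1 in its complex, went from 1360 ± 76.4 to 1096 ± 37.3 (log2 difference -0.31, adjusted p = 0.0005, limma) and was not called. EDEM1, which guides misfolded glycoproteins to this complex, gave 358.8, 373.0 and 325.5 in DMSO and 495.0, 578.6 and 523.3 in THZ531. It rose by 0.59 on the log2 scale (SE 0.10, adjusted p = 7.7e-05, limma), at 1.51-fold the smallest increase of those called. The call was lost without DMSO replicate 3 (0.54), without THZ531 replicate 2 (0.53) and in edgeR (0.58). HERPUD1, a scaffold of the same complex, went from 1309 ± 19.6 to 1551 ± 53.2 (log2 difference 0.24).

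None of the 7 folding factors was called regulated, against 15.7% of all expressed loci increased and 23.9% decreased. PDIA6, a disulfide isomerase, showed the largest difference, with 18335.1, 19290.2 and 19019.3 in DMSO and 26367.2, 24979.0 and 25308.8 in THZ531, a log2 difference of 0.44 (SE 0.04, adjusted p = 1.5e-08, limma). Another isomerase, PDIA4, went from 21471 ± 398 to 25686 ± 414 (0.26). The lectin chaperones of glycoproteins were both abundant. CALR, calreticulin, went from 51293 ± 2771 to 61266 ± 1519 (0.26), and its membrane-bound relative CANX, calnexin, from 45847 ± 1346 to 48182 ± 273 (0.07, adjusted p = 0.058, limma). CRELD2 went from 1350 ± 107 to 1676 ± 114 (0.31) and SDF2L1, a cofactor of ER chaperones, from 2390 ± 267 to 2601 ± 67.0 (0.13, adjusted p = 0.11, limma). The difference of SDF2L1 was 0.031 without DMSO replicate 3, its lowest value.

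MANF, a secreted factor held in the ER, was the exception in this class on the deposited scale. Its values were 6631.5, 7893.7 and 8306.8 in DMSO and 6244.5, 5968.8 and 6323.2 in THZ531, a log2 difference of -0.30 (SE 0.06, adjusted p = 0.0006, limma). All the THZ531 libraries were lower, with DMSO replicate 1 closer to them than to the other DMSO libraries. On the deposited scale the groups of the 7 folding factors did not overlap for 6 that were higher and 1 that was lower. The shares of all expressed loci were 36.0% and 35.7%. The median log2 fold change of these 7 genes was 0.26 on the deposited scale and -0.24 when scaled to RPL34. Over all expressed loci these medians were -0.01 and -0.50. The 5 genes with the ER stress response element included XBP1, which fell, and CALR, CANX, CRELD2 and PDIA6, with log2 differences of 0.26, 0.07, 0.31 and 0.44.

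Levels of different genes were compared per kb of exon, from the merged exons of GENCODE v44, which include rarely used ones. In DMSO the 32 genes ranged from 18306 normalized reads per kb for CALR to 13.3 for ERN1. After CALR followed ATF4 (9337), PDIA4 (6510), PDIA6 (4610) and CEBPB (3783). ATF4 stood at percentile 98.8 of 14503 expressed genes, above its target DDIT3 at percentile 63.2 (291.2 per kb). At the low end were EIF2AK3 (33.1), ALDH1L2 (26.2), NUPR1 (15.7) and ERN1, so that the messengers of IRE1 and PERK were at percentiles 13.8 and 24.7 while ATF6 (156.2 per kb) was at percentile 50.4. The 6 decreased genes were spread over this scale, from XBP1 at rank 9 to ERN1 at rank 32. In THZ531 the level of DDIT3 was 101.6 per kb and that of CEBPB 6272 per kb.

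**Figure D3:**
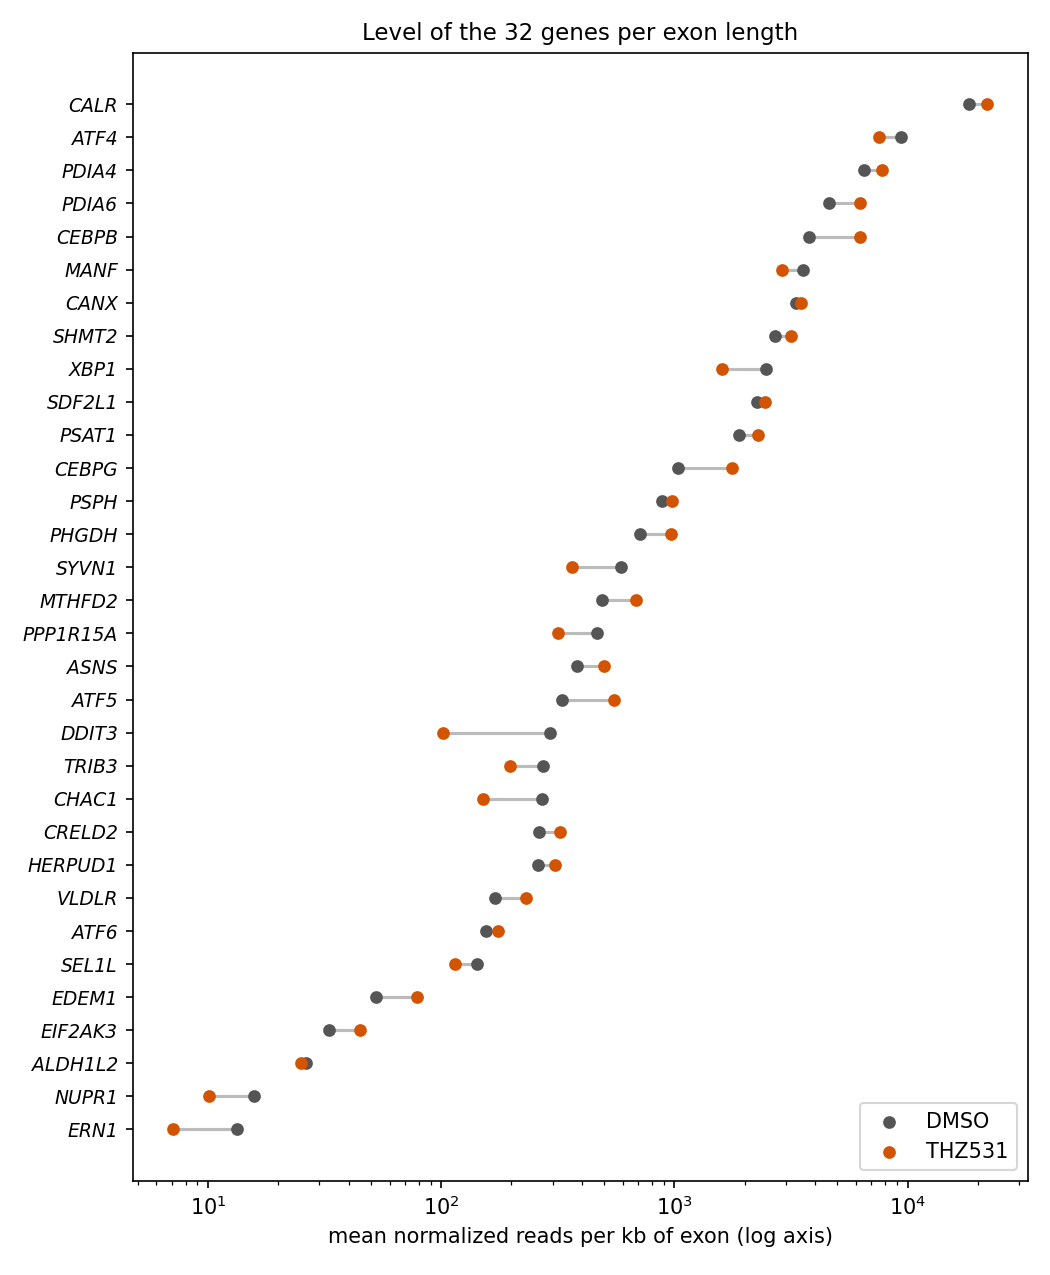
Mean normalized reads per kb of exon (x axis, log scale) of the 32 genes in DMSO (grey) and THZ531 (orange), ordered by the DMSO level. CALR is at the top with 18306 and ERN1 at the bottom with 13.3, and the widest gap between the groups is that of DDIT3 (291.2 and 101.6).

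The scale of the libraries set the direction of many of these differences. The totals of the deposited values were 55389676 to 56639224 in DMSO and 65875609 to 66820371 in THZ531, and RPL34, the reference gene of the quantitative PCR in the study, was 11905 to 14248 in DMSO and 18164 to 18337 in THZ531. Scaling all libraries to the same total moved the median of all expressed loci by -0.24 on the log2 scale, and scaling to RPL34 moved it by -0.49. With the same total, 0 of the 32 genes were increased and 8 decreased (25.0%), against 9.38% and 32.0% of all expressed loci. With RPL34, 0 were increased and 11 decreased (34.4%), against 6.14% and 42.8%. The decreases of DDIT3, NUPR1, CHAC1, ERN1, XBP1 and SYVN1 were called under every one of these scalings. Both alternatives lower the THZ531 values relative to DMSO, so a decrease could only become larger and this does not test it. TRIB3 and PPP1R15A were decreased in both of the alternative scalings, and ATF4 (-0.80), SEL1L (-0.80) and MANF (-0.79) only in that to RPL34.

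A change of scale moves all genes by about the same amount and leaves their order. By the sign of the log2 difference alone, without regard to a test, 12 of the 32 genes were lower under all the scalings (deposited, same total, upper quartile and RPL34) and 4 were higher under all of them, and those 4 were ATF5, CEBPB, CEBPG and EDEM1. With RPL34 their log2 differences were 0.25, 0.24, 0.28 and 0.10, and none of the 4 was called. The 12 include ALDH1L2, whose groups overlapped. The other 16 genes were higher on the deposited scale and lower with RPL34. These counts restate the size of the deposited differences, since every alternative scaling lowers THZ531 relative to DMSO. The shares of all expressed loci were not counted for them.

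**Figure D4:**
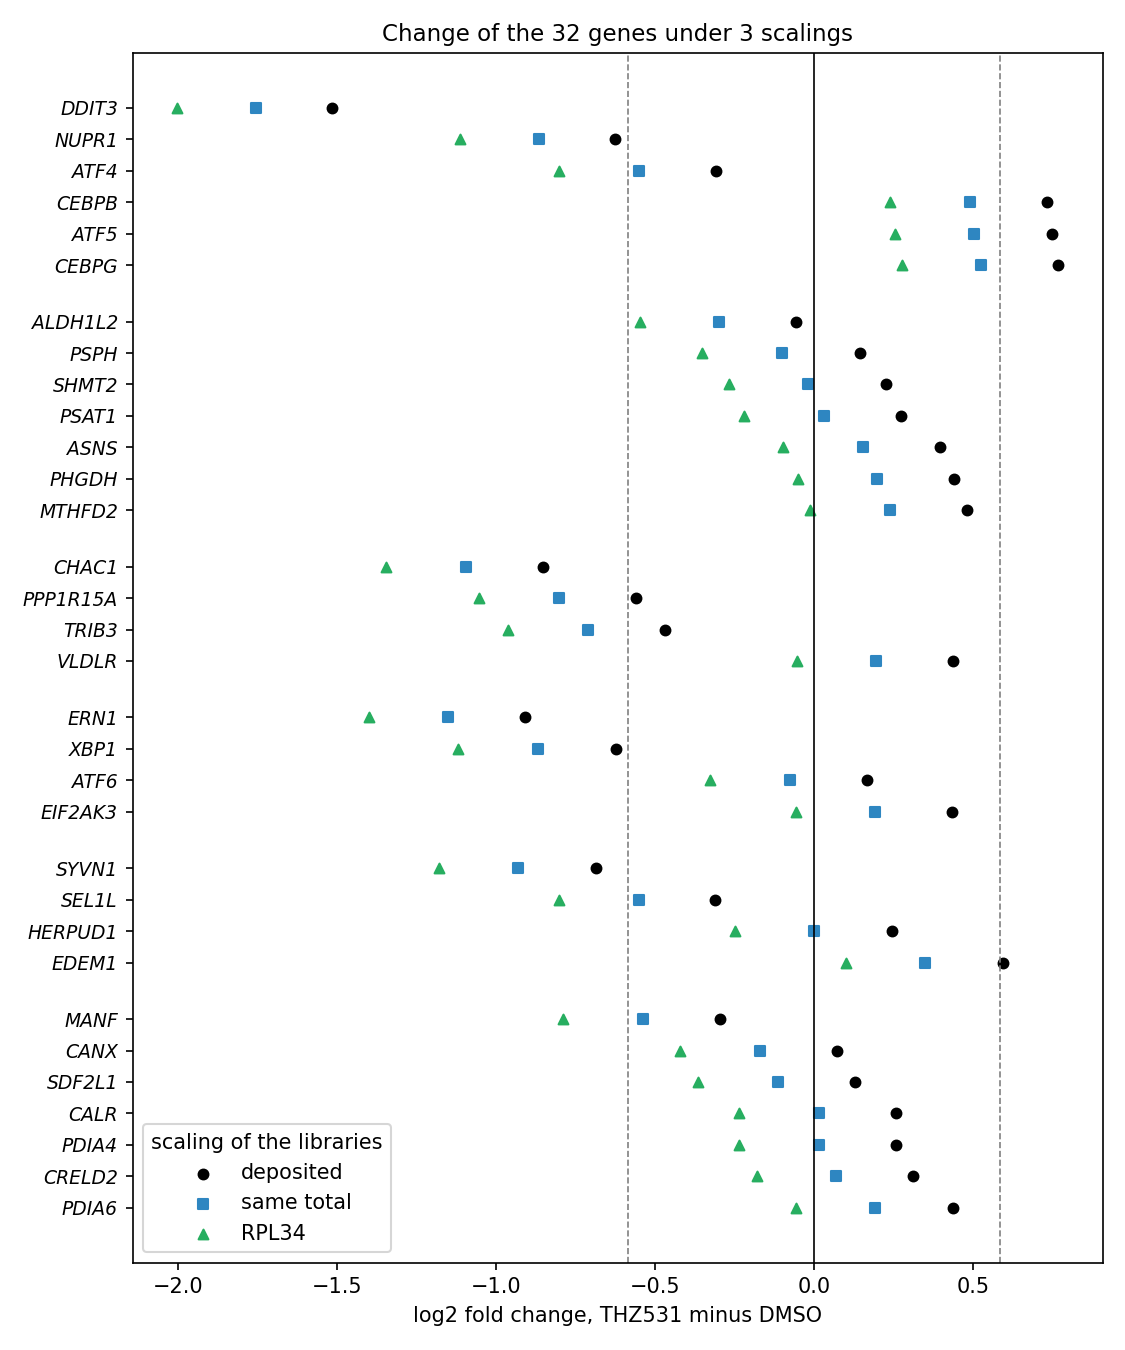
Log2 fold change of the 32 genes (x axis, THZ531 minus DMSO) with the deposited scaling (circles), the same total (squares) and RPL34 (triangles), n = 3 libraries per group. Dashed lines mark a fold change of 1.5. CEBPB, ATF5, CEBPG and EDEM1 keep all 3 marks on the right of 0, and DDIT3 lies furthest left, between -2.004 and -1.514.

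Inhibitors of CDK12 are known to act on long genes, so the span of the genes was set beside their change. The locus span had a median of 14.8 kb over the 32 genes and 28.6 kb over 14503 expressed genes. The Spearman correlation of span and log2 fold change was 0.19 over the 32 genes and -0.05 over the 14503, each within the same libraries and given as a description. The decreased genes had a median span of 6.15 kb, from CHAC1 (3.04 kb) to ERN1 (91.7 kb), and the increased genes one of 7.27 kb, from CEBPB (2.11 kb) to EDEM1 (32.3 kb). ATF6, the longest at 197.8 kb, was not called.

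A locus without a symbol inside ATF6 rose while ATF6 itself did not pass the fold threshold. It lies at chr1:161890833-161892195 (hg38) in intron 14 of the 16-exon MANE transcript, 27520 bases after the start of an intron of 48983 bases. It gave 38.9, 30.6 and 19.9 normalized reads in DMSO and 224.2, 155.7 and 176.3 in THZ531, a log2 fold change of 2.63 (SE 0.27, adjusted p = 2.6e-07, limma). A second such locus lies in intron 6 of HERPUD1, at chr16:56941028-56941724, and gave 6.35, 7.42 and 13.6 in DMSO and 56.7, 36.4 and 35.3 in THZ531. It was higher by 2.15 on the log2 scale. Only its THZ531 values brought it past the minimum for expression, so no test of it is given. In both loci every THZ531 library was above every DMSO library, as in 36.0% of all expressed loci. The values do not tell which transcripts their reads come from.

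Some of the genes share their position with a neighbour that changed. SHMT2 lies within the locus of STAT6 on the other strand, which fell by 0.78 on the log2 scale, and SYVN1 overlaps by 93 bases that of MRPL49, which fell by 0.97. PPP1R15A lies in the locus of FTL, which the table draws over a long region of the same strand and which rose by 0.60. The part of the reads of these neighbours in the values of SHMT2, SYVN1 and PPP1R15A was not tested.

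A further 157 genes of the same pathways, which hold none of the 32, were counted from lists written with earlier results of these data known. Of the 153 that were expressed, 20 were increased (13.1%) and 19 decreased (12.4%), against 15.7% and 23.9% of all expressed loci, and the median log2 fold change was 0.13. FGF21, INHBE, ERN2 and CREB3L3 were below the minimum for expression.

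In the ATF4 program 8 of 45 genes were increased and 4 decreased (17.8% and 8.89%, against 15.7% and 23.9% of all expressed loci), with a median log2 fold change of 0.10. With the same total 5 were increased and 7 decreased (11.1% and 15.6%, against 9.38% and 32.0% of all expressed loci). With RPL34 the counts were 2 and 17 (4.44% and 37.8%, against 6.14% and 42.8%), with a median of -0.40. The shares of all expressed loci thus moved in the same directions as those of the list. CTH, which makes cysteine, rose from 455.2 ± 41.0 to 1325 ± 49.3 (log2 fold change 1.54). BBC3, the pro-apoptotic PUMA, rose from 148.0 ± 17.8 to 304.4 ± 17.4 (1.04). ATF3, a transcription factor induced by ATF4, gave 744.7, 720.1 and 849.8 in DMSO and 1529.0, 1494.8 and 1626.9 in THZ531 and rose by 1.01 (SE 0.07, adjusted p = 5.3e-09, limma), whereas DDIT3, which ATF4 also induces, fell. SESN2, a restraint on mTORC1, rose from 337.1 ± 36.8 to 628.4 ± 28.9 (0.90). With RPL34 the call of CTH was kept (1.05), while those of BBC3 (0.55), ATF3 (0.52) and SESN2 (0.41) were lost. ADM2, a peptide hormone, fell by 1.49 from 382.4 ± 44.8 to 137.0 ± 26.7, SLC6A9, a glycine transporter, fell by 1.00 and SLC1A4, a transporter of neutral amino acids, by 0.90. Among the 12 tRNA synthetases of the list 0 were increased and 0 decreased (0 and 4 for RPL34), with a median of 0.01. Among 8 amino acid transporters 1 was increased and 2 decreased (1 and 4 for RPL34). The shares of all expressed loci were 15.7% and 23.9% on the deposited scale, and 6.14% and 42.8% for RPL34.

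Of 20 genes of eIF2, its kinases, its exchange factor eIF2B and other regulators, 0 were increased and 4 decreased (20%). Of all expressed loci 15.7% were increased and 23.9% decreased. For RPL34 the counts were 0 and 8 (0.0% and 40.0%, against 6.14% and 42.8% of all expressed loci). EIF2AK4, which encodes the amino acid sensor GCN2, gave 4597.5, 4286.9 and 4174.6 in DMSO and 1830.0, 1863.1 and 1755.4 in THZ531. It fell by 1.26 on the log2 scale (SE 0.05, adjusted p = 6.2e-12, limma), whereas the transcript of the kinase PERK was 1.35-fold higher on the deposited scale, a difference that became -0.06 with RPL34. EIF2B4, a subunit of the exchange factor of eIF2, fell by 0.79. The other decreased genes, DELE1 and OMA1, relay mitochondrial stress to an eIF2 kinase. DELE1, which was named after its values were seen, fell by 0.64. OMA1, a protease, fell by 0.94, but it is joined with DAB1 in 1 locus and its value cannot be assigned to either gene.

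In ER-associated degradation 4 of 28 genes were increased and 4 decreased (14.3% each), against 15.7% and 23.9% of all expressed loci. These counts were even on the deposited scale only. They became 1 and 7 for the same total (3.57% and 25.0%, against 9.38% and 32.0% of all expressed loci). For RPL34 they became 0 and 10 (0.0% and 35.7%, against 6.14% and 42.8%). The ligases RNF139 and MARCHF6 rose by 1.03 and 0.71 on the log2 scale, while the ligase SYVN1 fell. The call of MARCHF6 was lost in both alternative scalings (0.47 for the same total and 0.22 for RPL34) and that of RNF139 in that to RPL34 (0.53). SYVN1 was decreased in both, but these scalings lower the THZ531 values and could only enlarge its fall. FAF2, which recruits the segregase VCP, fell by 1.46, EDEM3, a relative of EDEM1 that trims mannose, by 1.38, and UBE2J2, a ubiquitin-conjugating enzyme, by 1.30. EDEM3 and EDEM1 thus had log2 fold changes of opposite sign, EDEM3 going from 2697 ± 53.5 to 1040 ± 43.99 normalized reads, although the call of EDEM1 was lost with the same total and with RPL34.

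Of the 40 folding genes, 28 were higher (70.0%) and 4 lower (10.0%) by the adjusted p of limma, against 34.6% and 34.1% of all expressed loci. Their median log2 fold change was 0.35 on the deposited scale and -0.15 with RPL34. Over all expressed loci these medians were -0.01 and -0.50. By both thresholds 5 were increased (12.5%) and 1 decreased (2.5%), against 15.7% and 23.9%, while for RPL34 the counts were 1 and 8. The 3 named by rule were UGGT2, a sensor of glycoprotein folding (1.36), DNAJC3, a cochaperone of BiP (0.88), and MLEC, a lectin for immature glycans (0.70). The call of MLEC was lost in both alternative scalings (0.46 for the same total and 0.21 for RPL34) and that of DNAJC3 in that to RPL34 (0.39). HSPA5, which encodes BiP, the main chaperone of the ER, gave 44868.9, 43158.6 and 43222.6 in DMSO and 65489.0, 65330.8 and 65680.4 in THZ531. The log2 difference of 0.58 (SE 0.03, adjusted p = 1.3e-10, limma) was just under the fold threshold and was 0.09 with RPL34. HSP90B1, the ER form of HSP90, went from 68163 ± 1096 to 95436 ± 2246 (0.49, and -0.01 with RPL34), and DNAJB9, a target of XBP1, from 1394 ± 39.2 to 1774 ± 21.6 (0.35, and -0.15 with RPL34).

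Of 20 further genes of ER stress signalling, 3 were increased (15.0%) and 6 decreased (30.0%), against 15.7% and 23.9% of all expressed loci. For RPL34 the counts were 3 and 9 (15.0% and 45.0%, against 6.14% and 42.8%). CREBRF, a regulator of CREB3 proteins, rose by 1.503 and BCL2L11, the pro-apoptotic BIM, by 1.16 on the log2 scale. NFYA, a subunit of the factor that binds the CCAAT box, rose by 1.11, although its locus is joined with a pseudogene of ADCY10. CREBZF fell by 1.37, TRAF2, which couples IRE1 to kinase signalling, by 0.78, and MBTPS2, the protease that makes the last cut in ATF6, by 0.73. TRAF2 and MBTPS2 fell alongside ERN1 and XBP1, while the transcript of ATF6 was not called.

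**Figure D5:**
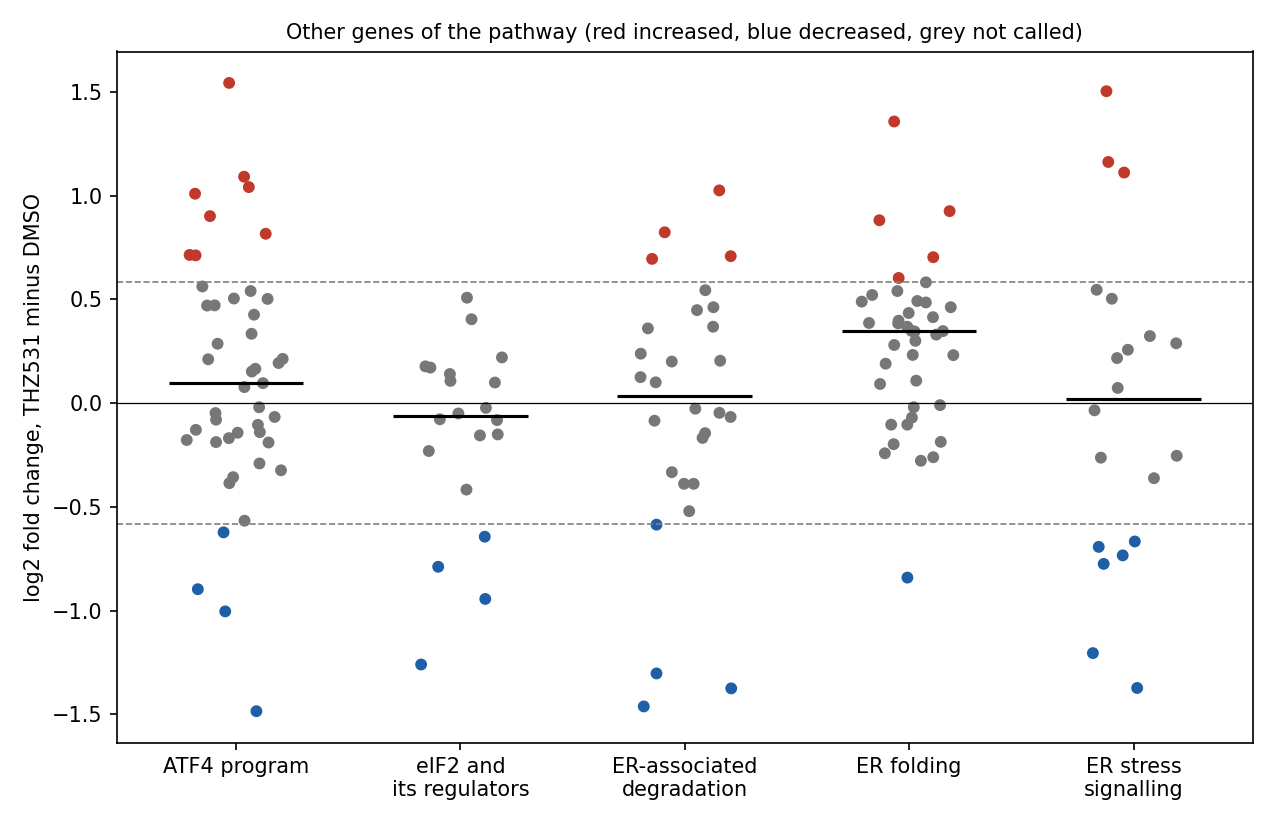
Log2 fold change (y axis, THZ531 minus DMSO) of the 153 other expressed genes of the pathway in 5 lists. Points are genes (red increased, blue decreased, grey not called), black bars are medians and dashed lines mark a fold change of 1.5. The median of the folding list (0.35) is the highest and that of the eIF2 list (-0.06) the lowest.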

How the data were processed

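Total RNA of OVCAR3 cells was sequenced as polyA plus libraries, prepared with the TruSeq Stranded mRNA kit per the labels. The authors aligned reads to hg38 using STAR (2.7.5a in the submitters' processing notes, an earlier release in the study's methods), assigned them to FAST DB genes with featureCounts and divided them by a DESeq2 size factor. The deposited values are therefore a signal, normalized reads per locus, and 100% of them were whole multiples of 1 read within a tolerance of 0.01, so that the reads were recovered for the count tests. All columns of the table were used. The symbol of MARS1 is replaced by a number in the table, and this gene was matched by its description.

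Values were tested here as log2(value + 1), computed from the deposited signal, with limma 3.58.1 (trended variance, R 4.3.3, no covariates) over the 17568 loci that reached 10 in 3 or more of the 6 libraries. Calls needed a fold change of 1.5 and p of 0.05, and adjusted p-values are those of Benjamini-Hochberg over these loci. Fold changes are on the log2(value + 1) scale, which understates those of low genes. With 3 libraries against 3, an exact permutation test of a single gene cannot go below p = 0.1, so none was used.

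The 32 genes, the pathway lists and the tests were chosen with earlier results of these data known. Every one of the 32 is named. In each pathway list the 3 called genes with the largest change in each direction, a mean of at least 100 and no overlap are named, with HSPA5, HSP90B1, DNAJB9, ATF3, SESN2 and EIF2AK4, except for 1 gene that is not reported here. The alternatives were pseudocounts of 0.1 and 10, a minimum of 50 or none, 3 scalings, calls by a fold change of 2 or by adjusted p, the replicate block, an untrended limma, edgeR 4.0.16, DESeq2 1.42.0 and leaving out each library. The last residues of the proteins were not analysed here.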

Additional observations from a re-analysis of the deposited data

How the results depend on the processing

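The number of increased genes among the 32 (4) became 0 with the libraries scaled to the same total, 0 with RPL34 and 0 at a fold change of 2, and the number of decreased genes (6) became 11 with RPL34 and 1, DDIT3, at a fold change of 2. Of the other pathway genes, the 20 increased became 12 with the same total, 6 with RPL34 and 9 at a fold change of 2, and the 19 decreased became 52 with RPL34 and 8 at a fold change of 2. These shifts follow from the construction of the alternatives, since both scalings lower all values of THZ531 and a fold change of 2 asks for more. Of all expressed loci 9.38% were increased with the same total, and 6.14% were increased and 42.8% decreased with RPL34. The shares of the 153 expressed pathway genes were lower than these in each case. The shares of all expressed loci at a fold change of 2 were not counted. With each library left out in turn, 3 or 4 of the 32 genes were increased and 5 to 7 decreased, and the pathway counts were 20 to 21 and 16 to 19. The deviations of DMSO and THZ531 libraries of the same replicate number correlated at 0.00, 0.02 and -0.04 over all expressed loci. Loci with few reads are among them, so this cannot show that the libraries were not prepared in pairs. With the replicate number as a block 4 genes were increased and 6 decreased, as without it, and the pathway counts were 20 and 18. NUPR1 (-0.56) and EDEM1 (0.58) lost their calls with a pseudocount of 10, and EDEM1 (0.57) with the upper quartile.

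The direction of a log2 difference was reversed with RPL34 for ASNS (-0.10), PSAT1 (-0.22), PHGDH (-0.052), PSPH (-0.35), SHMT2 (-0.27), MTHFD2 (-0.012), VLDLR (-0.055), EIF2AK3 (-0.058), ATF6 (-0.33), HERPUD1 (-0.25), CRELD2 (-0.18), SDF2L1 (-0.37), CALR (-0.24), CANX (-0.42), PDIA4 (-0.23) and PDIA6 (-0.057). It was reversed with the same total for PSPH (-0.10), SHMT2 (-0.018), ATF6 (-0.076), SDF2L1 (-0.12) and CANX (-0.17). For ALDH1L2 the values without 1 library ran from -0.131 to 0.061. Which scaling comes closest to RNA per cell was not tested, and the depth limits NUPR1 most, with fewer than 100 normalized reads in every library.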
